A study of Homo sapiens with 6 samples.

Results

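Vascular endothelial growth factors (VEGF), platelet-derived growth factors (PDGF) and the neuropilins were followed in Daoy cells, an established human medulloblastoma line, after treatment with thapsigargin (Tg). The genes were a given list of 10, namely the VEGF family ligands VEGFA, VEGFB, VEGFC and PGF, the neuropilins NRP1 and NRP2, the PDGF ligands PDGFA, PDGFB and PDGFC, and the receptor PDGFRB. They were 10 of the 19775 genes with a probe set of their own, and every probe set that the platform annotation names to one of these symbols alone was taken, which gave 32 of 54675 probe sets. Tg inhibits the SERCA calcium pumps of the endoplasmic reticulum (ER), empties its calcium store and thereby activates the unfolded protein response (UPR).

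RNA was measured on 6 Affymetrix HG-U133 Plus 2.0 arrays in 3 groups of 2, which were cells exposed to 1 µM Tg for 3 h, cells exposed to 1 µM Tg for 8 h, and untreated cells. All 3 groups were the same cell line in the same serum-containing medium, with no genetic change, and the labels name no endothelial cells or pericytes in the cultures. The question addressed was which of these vascular growth factor genes change in RNA level when the UPR is activated. Values are MAS5 signals on a linear scale, and changes are differences of mean log2 signal. In such bulk samples, fewer cells with a transcript and less of it per cell cannot be told apart.

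VEGF ligands are secreted dimers that act on the receptor tyrosine kinases FLT1, KDR and FLT4, which are found mainly on endothelial cells. VEGFA acts through FLT1 and KDR and drives the growth of blood vessels, VEGFB and PGF bind FLT1, and VEGFC acts through FLT4 and KDR and is known for the growth of lymphatic vessels. Neuropilins are co-receptors that bind certain VEGF forms and class 3 semaphorins. PDGF dimers act on PDGFRA and PDGFRB, and PDGFB to PDGFRB signalling is known for recruiting pericytes to new vessels. All of these ligands are folded and disulfide-bonded in the ER before secretion.

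The arrays differed by replicate number as well as by treatment. Hybridization control probe sets had a geometric mean signal between 7762 and 11671 on the replicate 1 arrays and between 2718 and 2840.3 on the replicate 2 arrays, and array medians lay between 84.8 and 103 on the replicate 1 arrays and between 69.7 and 75.3 on the replicate 2 arrays. A second fit, with that number as a blocking factor (below called the block), was therefore made for every change. Its value is given for the changes the text turns on, most of them with the change within each replicate number as well. The 5 UPR targets checked (HSPA5, DDIT3, HYOU1, DNAJB9 and SDF2L1) were higher than untreated on all 4 Tg arrays. In limma's test with Benjamini-Hochberg adjustment, DNAJB9 passed at 3 h, where 0.0701% of the 12839 genes tested passed as higher, and 4 of the 5 (all but HSPA5) passed at 8 h, where 0.646% did. With the block all 5 passed at both times. Of neural markers, 6 of the 9 with a probe set of their own reached a signal of 100 on at least 2 arrays, while ATOH1, BARHL1 and SYP reached it on none. Of 8 endothelial markers 4 did so, TIE1 on all 6 arrays (signals between 448 and 655), TEK and KDR on 5 and PECAM1 on 3, while VWF, ESAM and CLDN5 reached 100 on none. The tallies were 6 of 7 for pericyte and smooth muscle markers, 6 of 7 for fibroblast markers and 0 of 3 for immune markers. Of those counted, NOTCH3 and DCN reached 100 on 2 arrays and RGS5 and MYH11 on 3. Over all 19775 genes with a probe set of their own, 12839 met the same rule, so these tallies name no cell type.

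Of the 32 probe sets, 24 reached a signal of 100 on at least 2 of the 6 arrays and were tested. They belonged to 8 of the 10 genes. The other 8 were dim, and they included all 4 of PDGFB and the 1 of PDGFRB. The plot of signals on the 6 arrays shows 1 or 2 probe sets of each gene.

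**Figure D1:**
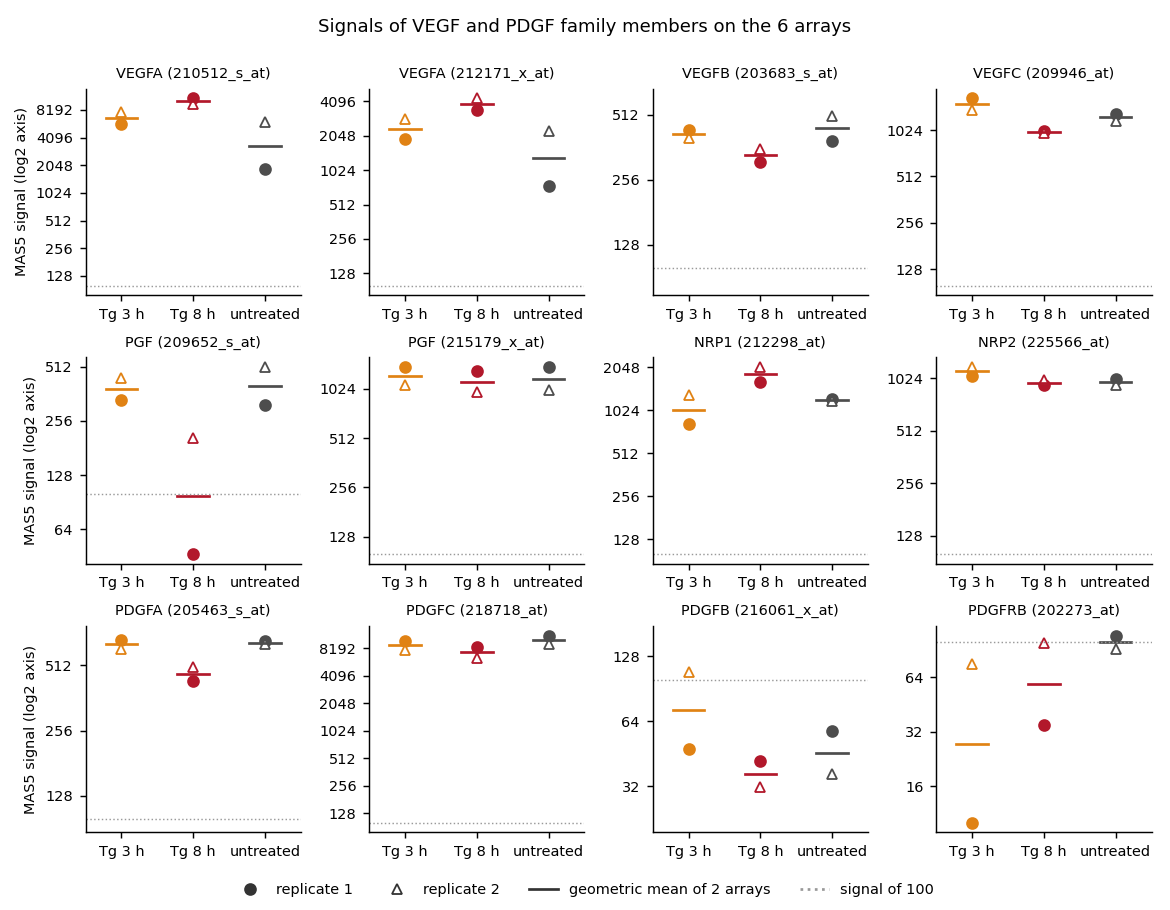
MAS5 signal (log2 axis) of 12 probe sets of the 10 genes on the 6 arrays, with Tg 3 h and Tg 8 h left of untreated cells. Circles are replicate 1, triangles replicate 2, bars the geometric mean of the 2 arrays, and the dotted line a signal of 100; the VEGFA signals of both Tg 8 h arrays lie above both untreated arrays, and the untreated arrays of VEGFA lie far apart.

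VEGFA had the largest upward differences of these genes at 8 h. Its probe set 210512_s_at gave signals of 5812 and 7860 in Tg 3 h cells and 10979 and 9601 in Tg 8 h cells, against 1854 and 6031 in untreated cells (replicates 1 and 2 in each pair). Both Tg 8 h arrays were above both untreated arrays, as in 14.9% of all 27616 probe sets tested. The Tg 3 h arrays overlapped with the untreated ones. The untreated arrays themselves differed by 1.70 on the log2 scale (replicate 2 minus replicate 1), more than the mean change at 8 h. That change was 1.62 (SE 0.48, a fold of 3.07), made up of 2.57 in replicate 1 and 0.67 in replicate 2, and at 3 h it was 1.02 (SE 0.48), made up of 1.65 and 0.38.

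The 8 h difference of this VEGFA probe set did not pass limma's test over all probe sets (adjusted p = 0.264) and did so with the replicate block (SE 0.33, limma adjusted p = 0.0203). Without untreated replicate 2 the log2 difference was 2.47, and without untreated replicate 1 it was 0.77, so the size of the change turned on which untreated array it was set against. At 3 h neither fit called it (limma adjusted p = 0.9995, and 0.285 with the block), and leaving out single arrays gave log2 differences between 0.16 and 1.87. The step between 3 h and 8 h, 0.60 on the log2 scale, was not called either (limma adjusted p = 0.912, and 0.423 with the block).

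The other 3 VEGFA probe sets did not all follow it to the same extent. For 212171_x_at the signals were 1905 and 2859 in Tg 3 h cells and 3454 and 4349.9 in Tg 8 h cells, against 741 and 2259.9 in untreated cells. Again both Tg 8 h arrays were above both untreated arrays and the Tg 3 h arrays were not. Its log2 change at 8 h was 1.58 (SE 0.47; 2.22 in replicate 1 and 0.94 in replicate 2), with a limma adjusted p of 0.267, and of 0.00596 with the replicate block (SE 0.25). It was 2.39 without untreated replicate 2 and 0.78 without untreated replicate 1, and at 3 h it was 0.85 (SE 0.47, with a limma adjusted p of 0.231 with the block). The 3 h value was 1.65 without untreated replicate 2 and 0.05 without untreated replicate 1.

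VEGFA probe set 211527_x_at had 373.5 and 315 in Tg 3 h cells and 808 and 381 in Tg 8 h cells, against 192 and 381 in untreated cells. Replicate 1 thus carried its whole 8 h difference, with log2 changes of 2.07 in replicate 1 and 0.00 in replicate 2 and a mean of 1.04 (SE 0.45; limma adjusted p = 0.502, and 0.181 with the block). The fourth, 210513_s_at, had 372 and 309.7 in Tg 3 h cells and 483 and 287 in Tg 8 h cells, against 308 and 275 in untreated cells. Its log2 change at 8 h was 0.35 (SE 0.33; limma adjusted p = 0.823, and 0.485 with the block), and it became -0.02 without Tg 8 h replicate 1. All 4 VEGFA probe sets had mean log2 changes above 0 at both times, also after quantile normalization or median centring. Across the 6 arrays, which share libraries and so are no independent measure, the log2 signals of these 3 probe sets correlated with those of 210512_s_at with Pearson's r of 0.98, 0.82 and 0.33.

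The study also measured human VEGFA RNA by qRT-PCR, whose values are not analysed here. Its oligonucleotides for this gene, on chromosome 6, are shown because they mark the VEGFA sequence that the study itself chose to read; each is 20 bases long, and no part is set in capitals.
VEGFA forward primer: cctccgaaaccatgaacttt
VEGFA reverse primer: ccacttcgtgatgattctgc
VEGFA probe: ccaagtggtcccaggctgca

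Regulators of VEGFA transcription and mRNA stability were read from a list of 10 genes, all tested. None passed limma's test at either time. Before adjustment, limma's p was under 0.05 for 1 gene at 3 h and for 2 at 8 h. Over all 27616 probe sets tested it was so for 1126 at 3 h and 2754 at 8 h, which counts probe sets and not genes. The local pooled error test called 1 as higher at 8 h (XBP1), where it called 1.05% of the 12839 genes as higher. That test takes its variance from probe sets of similar signal and not from the spread of the probe set itself. With the replicate block 2 passed as higher at 8 h, where 4.76% of the 12839 genes did, and 0 passed as higher or lower at 3 h. EPAS1, the HIF2 alpha subunit, had 931 and 2572 in Tg 3 h cells and 1703 and 2997 in Tg 8 h cells, against 404 and 1819 in untreated cells, a log2 change of 1.40 at 8 h (limma adjusted p = 0.584, and 0.0128 with the block). XBP1, a UPR transcription factor, had 3817 and 4899 in Tg 3 h cells and 4560.0 and 4663 in Tg 8 h cells, against 908 and 3018 in untreated cells, a log2 change of 1.48 at 8 h (limma adjusted p = 0.321, and 0.0242 with the block). In both genes, as in VEGFA, untreated replicate 1 was the lowest of the 6 arrays. The 8 h log2 change of EPAS1 was 2.48 without untreated replicate 2 and 0.31 without untreated replicate 1, and that of XBP1 was 2.34 without untreated replicate 2 and 0.61 without untreated replicate 1. Between 8 h and 3 h, ZFP36L1, a factor that destabilizes AU-rich mRNAs, was the 1 gene of the list called as lower with the block, where 1.72% of all genes were. It had 10718 and 7183 in Tg 3 h cells and 6794 and 4308 in Tg 8 h cells, against 7744 and 7254 in untreated cells, and the log2 difference of 8 h minus 3 h was -0.70 (SE 0.29; limma adjusted p = 0.733, and 0.0434 with the block).

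The untreated arrays were spaced differently from gene to gene. On the log2 scale, untreated replicate 2 minus untreated replicate 1 was 2.17 for EPAS1, 1.73 for XBP1 and 2.22 for ATF4 (a transcription factor translated under ER stress), and between -0.09 and 0.87 for the other 7 genes of that list. For the 5 UPR targets it was 2.03 for DDIT3 (the transcription factor CHOP), 0.60 for HYOU1, 0.33 for DNAJB9, 0.19 for HSPA5 (the ER chaperone BiP) and -1.09 for SDF2L1. The part of this spread in the VEGFA result was not tested.

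The genes whose signal followed VEGFA most closely were sought among the 7481 tested genes with a mean signal of at least 500. Over the 6 arrays the highest Pearson correlations with 210512_s_at were those of TRIB3 (0.998), a pseudokinase, GARS1 (0.993), the glycyl-tRNA synthetase, CEBPB (0.992), a bZIP transcription factor, PMAIP1 (0.992), which encodes the apoptosis regulator NOXA, and RNFT1 (0.985), a RING finger protein. TRIB3 had 5851 and 11663 in Tg 3 h cells and 20907 and 16097 in Tg 8 h cells, against 839.9 and 7879 in untreated cells. In each of the 5, as in this VEGFA probe set (210512_s_at), untreated replicate 1 had the lowest of the 6 signals. The likeness is given as a description.

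**Figure D2:**
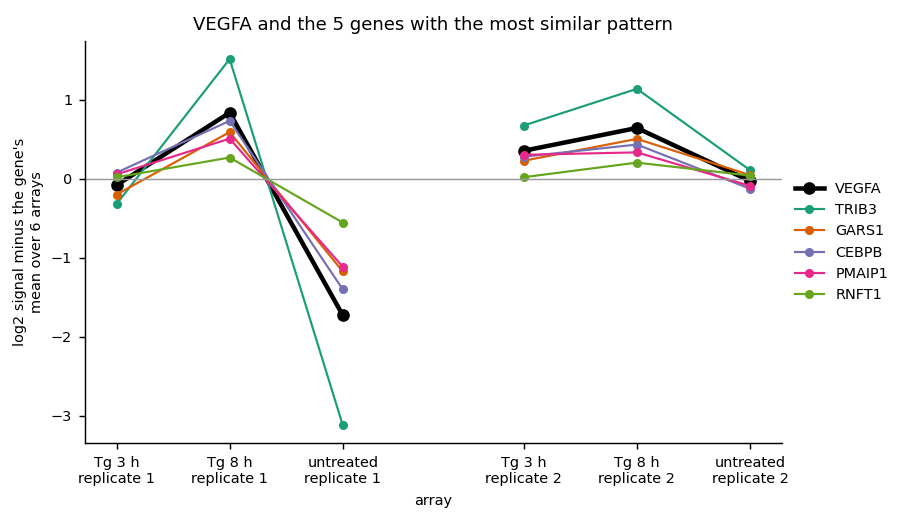
Log2 signal minus the gene's own mean over the 6 arrays, for VEGFA (probe set 210512_s_at, heavy line) and the 5 genes with the highest Pearson correlation to it, with arrays of replicate 1 on the left and of replicate 2 on the right, each as Tg 3 h, Tg 8 h and untreated. Lines only join points of 1 gene and replicate; in all 6 genes the lowest point is untreated replicate 1 and the highest is Tg 8 h replicate 1.

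Among the other VEGF ligands, PGF (placental growth factor) had the largest downward difference at 8 h, in 1 of its 2 probe sets. Its probe set 209652_s_at gave 336 and 442.5 in Tg 3 h cells and 46.6 and 205 in Tg 8 h cells, against 315 and 509.6 in untreated cells. Both Tg 8 h arrays were below all 4 other arrays, and the Tg 3 h arrays overlapped with the untreated ones. At 8 h, 24.5% of all 27616 probe sets tested had both Tg arrays below both untreated arrays. The log2 change at 8 h was -2.03 (SE 0.65, a fold of 0.244; -2.76 in replicate 1 and -1.31 in replicate 2), with a limma adjusted p of 0.306, and of 0.0181 with the replicate block (SE 0.41). Since 1 of the signals was under 100, the change was also computed with signals under 100 raised to 100, which gave -1.48. It was -0.96 without Tg 8 h replicate 1 and -3.10 without Tg 8 h replicate 2.

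Set against Tg 3 h, the same PGF probe set changed by -1.98 on the log2 scale at 8 h (limma adjusted p = 0.587, and 0.0393 with the block). It was -1.43 with signals under 100 raised to 100, -0.91 without Tg 8 h replicate 1 and -3.05 without Tg 8 h replicate 2. Probe set 215179_x_at of PGF gave another picture, with 1392 and 1081 in Tg 3 h cells and 1306 and 983 in Tg 8 h cells, against 1389 and 1005 in untreated cells. Its groups overlapped and its log2 change at 8 h was -0.06 (SE 0.26; limma adjusted p = 0.983, and 0.871 with the block). The PGF result thus rests on 209652_s_at alone.

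The promoter of PGF is shown because, of the members whose change was called with the block, it is the one with a window kept from the RefSeq promoter table. A window was kept only if it lay before the gene's outermost annotated start. The window holds the 250 bases before the gene's start, read 5′ to 3′ on the minus strand at chr14:74955765-74956014 of GRCh38.p14, and capitals mark GC boxes (GGGCGG, or CCGCCC on the other strand).
PGF promoter: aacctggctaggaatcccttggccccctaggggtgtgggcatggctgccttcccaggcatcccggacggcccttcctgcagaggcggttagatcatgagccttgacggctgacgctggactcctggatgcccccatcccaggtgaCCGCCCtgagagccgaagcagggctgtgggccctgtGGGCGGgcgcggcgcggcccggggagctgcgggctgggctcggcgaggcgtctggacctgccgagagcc

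Such windows, before the outermost annotated start, were at hand for 6 of the 10 genes (VEGFB, VEGFC, PGF, NRP2, PDGFA and PDGFRB), and both strands were searched. The ER stress element (CCAAT and CCACG, 9 bases apart), the UPR element (TGACG followed directly by TGG), the C/EBP-ATF element (TGATG, any base, then AA) and the core of the hypoxia response element (ACGTG, which the UPR element also contains) had 0 matches in the 6 windows. Of all 35116 windows of the same length, 0.074% held the ER stress element, 0.612% the UPR element, 3.14% the C/EBP-ATF element and 18.5% the hypoxia core. Those 35116 windows were not limited to outermost starts, so the sets are not chosen alike. GC boxes were found in all 6 windows, 6 in VEGFB, 3 in NRP2, 2 each in VEGFC and PGF and 1 each in PDGFA and PDGFRB, against 42.6% of all windows with at least 1.

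VEGFC, the lymphatic growth factor, lay on opposite sides of untreated cells at the times measured. Probe set 209946_at gave 1650.4 and 1375 in Tg 3 h cells and 1011 and 980.3 in Tg 8 h cells, against 1297 and 1179.8 in untreated cells. Both Tg 3 h arrays were above and both Tg 8 h arrays below both untreated arrays. Over all 27616 probe sets tested, 14% lay above in this way at 3 h and 24.5% below at 8 h. Neither change against untreated passed (limma adjusted p = 0.9995 at 3 h and 0.690 at 8 h, and 0.502 and 0.278 with the block). The log2 changes against untreated were 0.28 at 3 h (0.35 in replicate 1 and 0.22 in replicate 2) and -0.31 at 8 h (-0.36 and -0.27; SE 0.21 each), and the difference of 8 h minus 3 h was -0.60 (SE 0.21), which was not called (limma adjusted p = 0.620, and 0.0773 with the block).

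VEGFB, whose product binds FLT1, gave 437 and 399 in Tg 3 h cells and 311 and 356.5 in Tg 8 h cells, against 387 and 505 in untreated cells. Both Tg 8 h arrays were below both untreated arrays, as in 24.5% of all 27616 probe sets tested. The log2 change at 8 h was -0.41 (SE 0.27; -0.32 in replicate 1 and -0.50 in replicate 2), with a limma adjusted p of 0.690 and of 0.358 with the block.

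Of the neuropilins, NRP1, a co-receptor for VEGFA and a receptor for SEMA3A, passed neither fit, though the groups of probe set 212298_at did not overlap at 8 h. Its signals were 819 and 1301 in Tg 3 h cells and 1613 and 2061 in Tg 8 h cells, against 1225 and 1186 in untreated cells. Both Tg 8 h arrays were above all 4 other arrays. At 8 h, 14.9% of all 27616 probe sets tested had both Tg arrays above both untreated arrays. The log2 change at 8 h was 0.60 against untreated (SE 0.27; limma adjusted p = 0.520, and 0.0962 with the block) and 0.82 against Tg 3 h (SE 0.27; limma adjusted p = 0.588, and 0.0533 with the block). Probe set 210510_s_at of NRP1 gave 356 and 519 in Tg 3 h cells and 430.1 and 644.5 in Tg 8 h cells, against 361.5 and 694 in untreated cells, so that its groups overlapped. The other 2 NRP1 probe sets, 1561365_at and 210615_at, were not tested. They had signals between 12.4 and 88.6 and between 5.2 and 81.5 over the 6 arrays.

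NRP2, a co-receptor for VEGFC and a receptor for SEMA3F, had 11 probe sets, of which 10 were tested. At 3 h the log2 change was above 0 in 9 of the 10 (8 after median centring), between -0.04 and 0.89, and in 5 of them both Tg 3 h arrays were above both untreated arrays, as in 14% of all 27616 probe sets tested. At 8 h it was above 0 in 5 and below 0 in 5, between -0.52 and 0.48, but this division depended on scaling, with 8 above and 2 below after quantile normalization or median centring. The 11 probe sets read 1 gene and are not separate evidence. The probe set that was not tested, 228699_at, had signals between 41.3 and 136.9.

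The NRP2 probe set with the highest mean signal, 225566_at, had 1055 and 1188 in Tg 3 h cells and 937 and 992 in Tg 8 h cells, against 1005.5 and 932 in untreated cells. Both Tg 3 h arrays were just above both untreated arrays (log2 change 0.21) and the Tg 8 h arrays overlapped with them (log2 change -0.01). Probe set 214632_at gave 697.5 and 839 in Tg 3 h cells and 578 and 731 in Tg 8 h cells, against 463 and 548 in untreated cells, and both arrays of each Tg group were above both untreated arrays. Its log2 change at 3 h was 0.60 (SE 0.25; 0.59 in replicate 1 and 0.61 in replicate 2), with a limma adjusted p of 0.9995 and of 0.226 with the block.

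Probe set 229225_at of NRP2 had 968 and 377 in Tg 3 h cells and 610.1 and 315 in Tg 8 h cells, against 525 and 203 in untreated cells. Here replicate 1 exceeded replicate 2 in every group and the groups overlapped, while the log2 change at 3 h was nearly the same in each replicate (0.88 in replicate 1 and 0.90 in replicate 2). Its mean was 0.89 (SE 0.59, and 0.22 with the block; limma adjusted p = 0.129 with the block). It was 0.20 without untreated replicate 2 and 1.58 without untreated replicate 1. Conversely, 222877_at had 948 and 831 in Tg 3 h cells and 662 and 469.9 in Tg 8 h cells, against 886 and 724 in untreated cells. Both Tg 8 h arrays of 222877_at were below both untreated arrays, as in 24.5% of all 27616 probe sets tested. Its log2 change at 8 h was -0.52 (SE 0.26; limma adjusted p = 0.562, and 0.125 with the block).

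The other 3 NRP2 probe sets with both Tg 3 h arrays above both untreated arrays were dimmer. Probe set 211844_s_at had 238 and 463 in Tg 3 h cells and 235 and 328 in Tg 8 h cells, against 166.5 and 237 in untreated cells. For 223510_at the signals were 364 and 273.5 in Tg 3 h cells and 328 and 174 in Tg 8 h cells, against 256 and 238 in untreated cells. In 219367_s_at they were 267 and 288 in Tg 3 h cells and 287.5 and 178 in Tg 8 h cells, against 238 and 231 in untreated cells. In all 3 the Tg 8 h arrays overlapped with the untreated ones. The last 3 tested, 210841_s_at, 1555468_at and 210842_at, overlapped at both times, and their log2 changes were 0.03, -0.04 and 0.20 at 3 h and -0.20, 0.04 and 0.44 at 8 h.

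Of the PDGF ligands, PDGFC and PDGFA had a probe set with both Tg 8 h arrays below both untreated arrays, and PDGFB was too dim to test. Of all 27616 probe sets tested, 24.5% lay below in this way at 8 h. PDGFC, a ligand of PDGFRA that is activated by proteases outside the cell, gave 9874 and 7908 in Tg 3 h cells and 8474 and 6444 in Tg 8 h cells, against 11313 and 9083 in untreated cells in probe set 218718_at. Both Tg 8 h arrays were below both untreated arrays, and the Tg 3 h arrays overlapped with them. The log2 change at 8 h was -0.46 (SE 0.24, a fold of 0.729), close to equal in replicate 1 (-0.42) and replicate 2 (-0.50), and it was called with the replicate block alone (SE 0.11; limma adjusted p = 0.605, and 0.0377 with the block). It was -0.65 without Tg 8 h replicate 1 and -0.26 without Tg 8 h replicate 2. At 3 h the log2 change was -0.20 in each replicate.

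Probe set 222719_s_at of PDGFC had 421 and 423 in Tg 3 h cells and 453 and 371.5 in Tg 8 h cells, against 821 and 534 in untreated cells. All 4 Tg arrays were below both untreated arrays. The log2 changes were -0.65 at 3 h (-0.96 in replicate 1 and -0.34 in replicate 2) and -0.69 at 8 h (-0.86 and -0.52; SE 0.29), with a limma adjusted p at 8 h of 0.481, and of 0.107 with the block. Both PDGFC probe sets had changes below 0 against untreated under each scaling.

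PDGFA, whose dimers bind PDGFRA, gave 673 and 612 in Tg 3 h cells and 434.5 and 506 in Tg 8 h cells, against 662 and 643 in untreated cells in probe set 205463_s_at. Both Tg 8 h arrays were below the other 4. The log2 change at 8 h was -0.48 (SE 0.23; -0.61 in replicate 1 and -0.35 in replicate 2), with a limma adjusted p of 0.546 and of 0.197 with the block. The second probe set, 216867_s_at, had 191.5 and 76.7 in Tg 3 h cells and 137 and 103 in Tg 8 h cells, against 147 and 84.5 in untreated cells, with overlapping groups.

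PDGFB, the pericyte-recruiting ligand, had 4 probe sets, none of which was tested. Their signals over the 6 arrays lay between 3.8 and 108.9, where MAS5 values have little precision. For example, 204200_s_at gave 57.6 and 6.8 in Tg 3 h cells and 52.4 and 4.1 in Tg 8 h cells, against 10.6 and 8.7 in untreated cells, with the replicates of each Tg group further apart than the untreated ones. In 216055_at the signals were 86.0 and 65.9 in Tg 3 h cells and 5.9 and 13.9 in Tg 8 h cells, against 4.7 and 48.3 in untreated cells. Probe set 216061_x_at had 47.8 and 108.9 in Tg 3 h cells and 42.1 and 31.8 in Tg 8 h cells, against 57.9 and 36.4 in untreated cells. No common order of the groups was seen among these 3, and the fourth, 217112_at, exceeded 11.0 on 1 array alone, Tg 8 h replicate 2 (58.9). No change could be read for PDGFB at these signals.

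PDGFRB, the receptor for PDGFB and the member that marks pericytes and other mesenchymal cells, had 1 probe set, 202273_at. It gave 10.0 and 75.4 in Tg 3 h cells and 34.9 and 98.1 in Tg 8 h cells, against 108.5 and 91.8 in untreated cells. Of these, 1 untreated array alone exceeded 100, so the receptor was not tested, and an absence of its transcript is not shown by this.

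**Figure D3:**
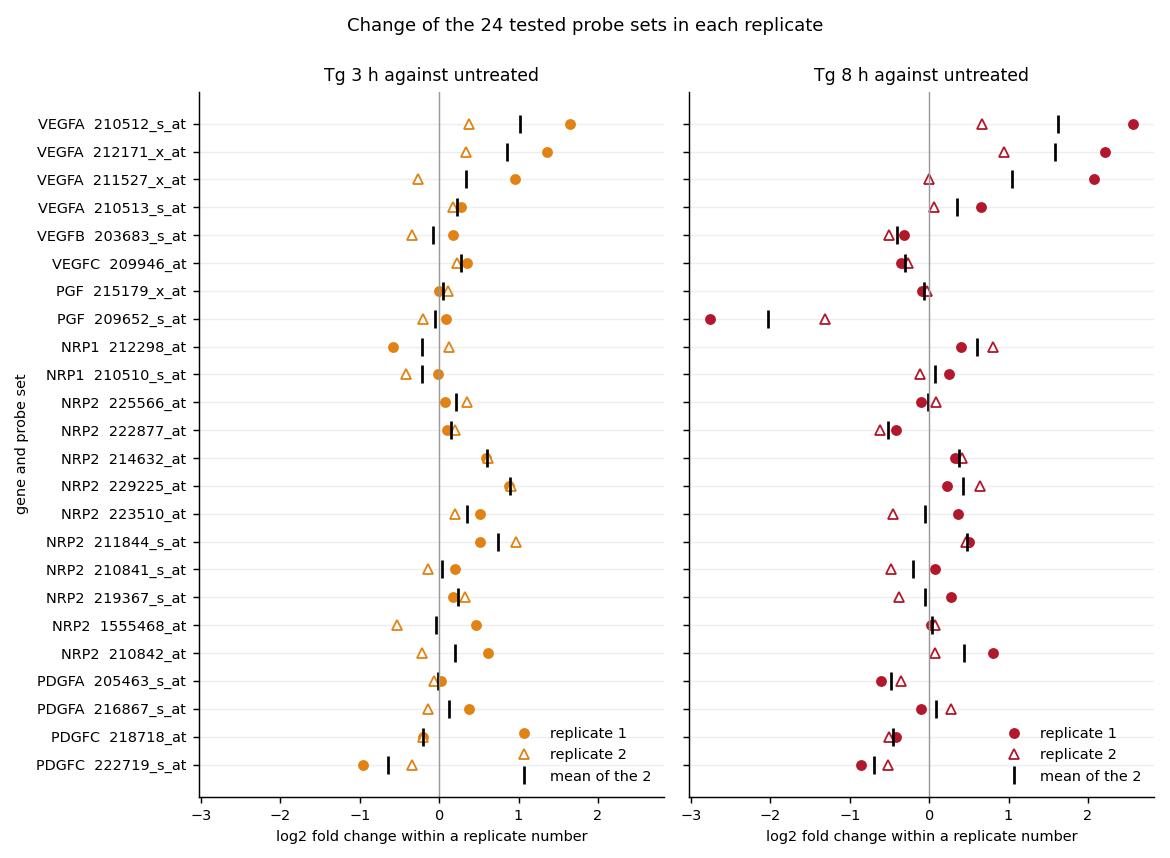
Log2 fold change of the 24 tested probe sets within replicate 1 (circles) and replicate 2 (triangles), with the mean of the 2 as a bar, for Tg 3 h against untreated on the left and Tg 8 h against untreated on the right. At 8 h the VEGFA probe set 210512_s_at lies at 2.57 and 0.67 and the PGF probe set 209652_s_at at -2.76 and -1.31, whereas both replicates of PDGFC 218718_at lie close together.

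Over all 24 tested probe sets, limma's test called 0 at 3 h, 0 at 8 h and 0 between 8 h and 3 h, against 0.0543%, 0.659% and 0% of all 27616 probe sets tested. At an unadjusted limma p under 0.05 the counts were 1, 4 and 4, against 1126, 2754 and 1804 of all 27616. With the replicate block, 0 of the 24 passed at 3 h, where 0.992% of all did. At 8 h the block called 2 as higher, both VEGFA, where 3.79% of all passed as higher, and 2 as lower, 1 of PGF and 1 of PDGFC, where 2.8% did. Between 8 h and 3 h it called 1 as lower (PGF), where 1.18% of all passed as lower. A local pooled error test of the kind the study used, rebuilt here, called 0 at 3 h, 0 between 8 h and 3 h, and 2 as higher at 8 h, the same 2 VEGFA probe sets, where 0.811% of all were called as higher. It takes its variance from probe sets of similar signal. The gaps between the untreated arrays of these VEGFA probe sets (1.70 and 1.61 on the log2 scale) therefore do not count as their own spread.

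Without regard to a test, both Tg 3 h arrays were above both untreated arrays in 7 of the 24 probe sets and below them in 1, while this held for 14% and 15.9% of all probe sets tested. Of those 7, 5 read the single gene NRP2, which supplied 10 of the 24, so these counts are not counts of separate genes. At 8 h the counts were 4 above and 7 below, against 14.9% and 24.5% of all. The median log2 change of the 24 was 0.17 at 3 h and 0.02 at 8 h, compared with -0.02 at 3 h and -0.09 at 8 h over all probe sets tested. Changes were above 0 in 16 and below 0 in 8 at 3 h (14 and 10 after median centring), and 9 of the 16 were of NRP2. At 8 h they were above 0 in 12 and below 0 in 12, but this division was 15 and 9 after quantile normalization and 16 and 8 after median centring.

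**Figure D4:**
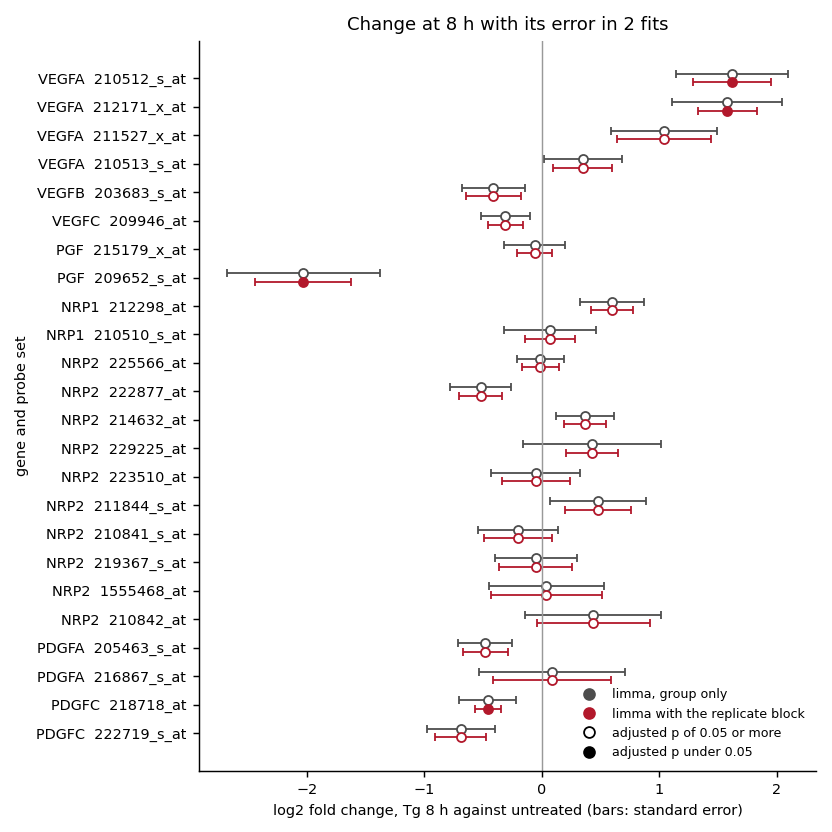
Log2 fold change at 8 h against untreated with its standard error for the 24 tested probe sets, in limma's fit with the group alone (grey) and with the replicate block (red); filled points have an adjusted p under 0.05. The estimates are equal in both fits and the standard errors are smaller with the block in all 24, and the filled points are 2 probe sets of VEGFA, 1 of PGF and 1 of PDGFC.

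Other genes of these pathways were read from 5 lists with 46 genes in all, of which 41 had a probe set of their own and 34 were tested, each gene through the probe set with the highest mean log2 signal. On the receptor list, FLT1, KDR, FLT4 and the receptor-like PDGFRL were tested and PDGFRA was not, and none of them was called at 3 h or 8 h by either fit. The same held for the other ligands (1 tested of 2) and for the neuropilin partners, namely plexins, class 3 semaphorins and GIPC1 (7 tested of 13). PDGFRL, though not called, had dim signals of 40.5 and 17.5 in Tg 8 h cells, against 157.3 and 173.0 in untreated cells. It reached 100 on 3 arrays alone, both untreated ones and Tg 3 h replicate 2 (129.6), so the untreated signals brought it into the test. Its log2 change at 8 h was -2.63 (limma adjusted p = 0.254, and 0.0844 with the block). The size of that change rests on Tg 8 h signals far under 100, where MAS5 values have little precision. No value with signals under 100 raised to 100 is given for it. The joined lists had a median log2 change of 0.04 at 3 h and -0.20 at 8 h.

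Of the enzymes that process these ligands, 7 of 8 were tested. PLAU, the urokinase-type plasminogen activator, rose at 3 h, with 6358 and 5698 in Tg 3 h cells and 2543.5 and 2943.5 in Tg 8 h cells, against 1876.5 and 1499 in untreated cells. All 4 Tg arrays were above both untreated arrays. Its log2 change at 3 h was 1.84 (SE 0.21; limma adjusted p = 0.0432, and 0.000425 with the block), which made it the 1 pathway gene called as higher at 3 h by limma and also the 1 called with the block, where 1.17% of all genes passed as higher and 0.0779% as lower. Without the block, this call was lost when any 1 of the 6 arrays was left out. At 8 h the log2 change of PLAU was 0.71 (limma adjusted p = 0.264, and 0.0234 with the block).

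At 8 h limma called 0 of the pathway genes and the local pooled error test 0. At an unadjusted limma p under 0.05 there were 6 of the 34, against 2754 of all 27616 probe sets tested. The latter counts probe sets and not genes, so the shares are not strictly alike. With the block 2 of the 34 passed as higher and 1 as lower, where 4.76% of all genes passed as higher and 3.79% as lower. The second higher one was NCK1, an adaptor that binds activated receptor tyrosine kinases and 1 of 15 tested signal transducers. It had 1814 and 1819.6 in Tg 3 h cells and 2030.4 and 2041 in Tg 8 h cells, against 1139 and 1358 in untreated cells, a log2 change at 8 h of 0.71 (limma adjusted p = 0.225, and 0.0183 with the block). All 4 Tg arrays were above both untreated arrays. The lower one was FURIN, the proprotein convertase that cleaves VEGFC and PDGF precursors, with 978 and 931 in Tg 3 h cells and 511 and 675 in Tg 8 h cells, against 1263 and 1192 in untreated cells. All 4 Tg arrays were below both untreated arrays, and the log2 change at 8 h was -1.06 (SE 0.23; limma adjusted p = 0.107, and 0.00852 with the block).

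Between 8 h and 3 h limma called 0 of the 34 pathway genes. At an unadjusted limma p under 0.05 there were 5, against 1804 of all 27616 probe sets tested, again a count of probe sets and not of genes. With the block 1 passed as higher and 1 as lower, where 1.53% of all genes passed as higher and 1.72% as lower. The lower one was PLAU, with a log2 difference of -1.14 (SE 0.21; limma adjusted p = 0.285, and 0.00785 with the block). The higher one was NCK2, an adaptor related to NCK1, with 1531 and 2343 in Tg 3 h cells and 2659 and 3409 in Tg 8 h cells, against 1836 and 2443 in untreated cells. Both of its Tg 8 h arrays were above the other 4, and the log2 difference of 8 h minus 3 h was 0.67 (SE 0.28; limma adjusted p = 0.728, and 0.0359 with the block).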

How the data were processed

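RNA from Daoy cells was hybridized to 6 arrays, and the authors deposited 1 signal intensity per probe set and array, computed with the MAS5 algorithm in the GCOS software. These intensities are linear and scaled to the same trimmed mean on each array. The genome build is not given in the sources used here, and detection calls were not used. Members and gene lists were chosen with earlier results of these data known. In the platform annotation 41097 of the 54675 probe sets have a single symbol, 1801 have several and 11777 have none; genes were named from the single ones, and 0 symbols changed through Entrez identifiers. Signals were log2-transformed without a pseudocount. A linear model with the group as its term was fitted to all 6 arrays in limma 3.58.1 (R 4.3.3; lmFit, then eBayes with trend). Tests were two-sided and adjusted by Benjamini-Hochberg over the 27616 probe sets that reached 100 on 2 or more arrays, and the threshold was 0.05. Python 3.11.15 and pandas 2.3.3 made the tables. The model was tested on simulated data with independent noise and no shared replicate effect. That run cannot show how the fits behave where replicates deviate together.

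Named with values were all probe sets of the 10 members, genes of the 5 pathway lists and the VEGFA regulator list that passed with or without the block, the 5 UPR genes, and the 5 genes most correlated with VEGFA. PDGFRL and, for the gap between its untreated arrays, ATF4 were added outside this rule, and neither passed with or without the block. The methods speak of 2 independent experiments, and arrays with the same replicate number deviated together from their group means, with correlations over 27616 probe sets of 0.26, 0.28 and 0.32 for the 3 pairs of groups. The replicate number was therefore taken as a pairing and fitted as a block. Which cultures were separate is stated no further, so the p-values cover the spread between these 6 arrays, and 2 arrays a group limit the precision. Alternatives were other scalings, filters, a pseudocount, fewer arrays, no intensity trend and a local pooled error test. Changes within each replicate and counts of arrays that did not overlap were added after seeing the data. Promoter sequences are from RefSeq and the oligonucleotides from the study's methods tables.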

Additional observations from a re-analysis of the deposited data

Results flagged for a closer look

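VEGFC (probe set 209946_at) lay on opposite sides of untreated cells at 3 h and 8 h. Both Tg 3 h arrays were above both untreated arrays and both Tg 8 h arrays were below them, so that the log2 difference of Tg 8 h minus Tg 3 h was -0.60, between -0.73 and -0.47 when single arrays were left out. After median centring the difference was -0.40, outside that range. This difference was singled out by the directions of the arrays. Limma's test of it gave an adjusted p of 0.620, and of 0.0773 with the replicate block, so it passed in neither fit. The changes against untreated at 3 h and at 8 h passed in neither fit either. Of all 27616 probe sets tested, 14% had both Tg 3 h arrays above both untreated arrays, and 24.5% had both Tg 8 h arrays below them. The share of probe sets with both traits was not computed.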

How the results depend on the processing

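With the replicate block, 4 member probe sets were called at 8 h against untreated, 1 between 8 h and 3 h and 3 pathway genes at 8 h, where limma without it called 0, 0 and 0; between 8 h and 3 h it called 2 pathway genes in place of 0, and the paired fit changed no other call on members or pathway genes. The block also raised the calls over all features. With it 3.79% of all 27616 probe sets tested passed as higher and 2.8% as lower at 8 h. Between 8 h and 3 h 1.18% of them passed as lower. Of all 12839 genes tested, 4.76% passed as higher and 3.79% as lower at 8 h, and 1.53% and 1.72% between 8 h and 3 h. The local pooled error test called 2 members as higher at 8 h, where it called 0.811% of all probe sets as higher. When single arrays were left out, members called at 8 h lay between 0 and 2, and the 2 were called without untreated replicate 2. The 1 pathway gene called at 3 h (PLAU) was lost, with 0 called, after median centring, with the 4 arrays of the groups compared alone, with signals under 100 raised to 100, without the intensity trend, and without any 1 of the 6 arrays (0 to 0); the cause was not tested. The log2 change of VEGFA 210513_s_at at 8 h lay between -0.02 and 0.73 when arrays were left out and was -0.02 without Tg 8 h replicate 1. Over 23 single values of members and 16 alternatives, 358 of 368 values kept direction and side of the threshold, 9 passed where the reported one did not, and 1 turned direction. Median centring moved the median of all probe sets by -0.11 at 3 h, 0.08 at 8 h and 0.20 between 8 h and 3 h. Dim probe sets (PDGFB, PDGFRB) and 2 arrays a group set the limits of what can be read here.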
